A study of Mus musculus and synthetic construct with 33 samples.

Results

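The 123 reporter tiles described here cover the stretch of the Trp53cor1 intron next to exon 1, out of 445 tiles that a massively parallel reporter assay placed across the linc-p21 locus. The rule uses position alone: every tile whose start lay between 29072713 and 29078801 on mouse chromosome 17 (build mm10) was taken, whatever its values. Trp53cor1, also called linc-p21, is transcribed from the minus strand, with exon 1 at 29078891-29078961, exon 2 at 29057474-29060358 and a single intron of 18532 bases between them, so all 123 tiles are intronic. Together they spanned 29072715-29078842. Tiles are numbered in the direction of transcription, which makes tile 17 the member nearest exon 1 and tile 139 the farthest from it. The rest of the library held 126 tiles of the intron next to exon 2, 123 of the middle of the intron, 57 of exon 2, and 16 of exon 1 and the sequence upstream.

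The study paired organ transcriptomes of Trp53cor1 mutant and wild-type mouse embryos, not used here, with this reporter assay. Each tile was a 90-base insert read on the minus strand, joined within an oligo of 145 bases to 1 of 5 tags of 10 bases, which the labels place in a GFP transcript. Neighbouring tiles started 49 bases apart and shared 41 bases, except for a distance of 109 bases between tiles 83 and 84. The Reporter_RNA group was 3 libraries of tag RNA from C2C12, an established line of mouse myoblasts that can form muscle fibres, and the labels name no treatment or genetic change of it. The Reporter_vector group was 3 libraries of the vector DNA pool that carries the same oligos. The labels do not say whether the 3 RNA libraries came from separate cultures, so the p-values measure the spread between these libraries only, which may be technical. A tile's value was the summed share of its 5 tags among all tag reads of a library, given in ppm, and its readout was the log2 difference of RNA over vector on the scale of log2(share + 10 ppm).

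In an assay of this kind the vector share says how common an oligo was in the pool, and an RNA share above it says that oligos with this insert gave more tagged RNA than their abundance in the pool accounts for. A long noncoding RNA gene can hold DNA elements that act on transcription apart from its transcript, and introns of mouse genes also hold many short interspersed repeats. The commonest of these are B1 elements, derived from the 7SL RNA gene, and B2 elements, derived from a tRNA gene; both carry an internal promoter for RNA polymerase III made of an A box and a B box.

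The tile with the highest RNA over vector, tile 54, is shown first with the tile on either side, because its readout stood far from both although it shares 41 bases with each. The sequences are from the deposited file, 5′ to 3′ on the minus strand of mm10 chromosome 17. Capitals mark the letters GCNNAGNNG, a short form of the A box, and GTTCNANNC, a short form of the B box, searched on both strands. These words were chosen after the values were seen. Tile 54 held the A box word from base 6 and the B box word from base 49. Tile 53 ended before the B box word, and tile 55 began with its second letter, so of the 3 tiles only tile 54 held both words whole. The stretch reads as the tRNA-derived head of a B2 element, a name given from general knowledge of the repeat, since no repeat annotation was used.
Tile 53, chr17:29076989-29077078: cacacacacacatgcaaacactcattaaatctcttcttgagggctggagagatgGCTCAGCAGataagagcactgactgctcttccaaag
Tile 54, chr17:29076940-29077029: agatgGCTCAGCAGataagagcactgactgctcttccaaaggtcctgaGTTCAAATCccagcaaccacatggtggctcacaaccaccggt
Tile 55, chr17:29076891-29076980: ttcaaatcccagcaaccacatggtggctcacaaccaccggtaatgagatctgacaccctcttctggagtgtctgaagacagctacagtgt

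Tile 76 had the second highest readout, and tiles 76 and 77 are shown because they overlap and were both well above the vector. Tiles 76 and 77 read as a B1 element in the direction printed. Capitals again mark the 2 box words. The B box word lay within the 41 bases shared by tiles 76 and 77, from base 68 of the former and base 19 of the latter.
Tile 76, chr17:29075862-29075951: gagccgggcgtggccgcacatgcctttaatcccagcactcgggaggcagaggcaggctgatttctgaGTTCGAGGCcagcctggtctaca
Tile 77, chr17:29075813-29075902: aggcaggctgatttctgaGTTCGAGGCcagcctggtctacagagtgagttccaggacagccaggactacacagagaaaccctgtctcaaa

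The other members with RNA at least 2-fold above vector were tiles 93, 20 and 116, printed here with the neighbour toward exon 2, with the same capitals. Tiles 93 and 94 both held the B box word. Tile 20 held the A box word and stopped within the letters of the B box word, which tile 21 completed. Tile 116 held neither word, and tile 117 held the B box word.
Tile 93, chr17:29074969-29075058: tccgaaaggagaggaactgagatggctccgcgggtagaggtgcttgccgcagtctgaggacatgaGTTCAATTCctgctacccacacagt
Tile 94, chr17:29074920-29075009: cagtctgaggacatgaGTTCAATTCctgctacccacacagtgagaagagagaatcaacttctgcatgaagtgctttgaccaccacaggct
Tile 20, chr17:29078606-29078695: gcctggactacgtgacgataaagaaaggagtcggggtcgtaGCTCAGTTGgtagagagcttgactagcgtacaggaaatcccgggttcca
Tile 21, chr17:29078557-29078646: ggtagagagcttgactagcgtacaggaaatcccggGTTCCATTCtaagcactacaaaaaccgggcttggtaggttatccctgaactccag
Tile 116, chr17:29073842-29073931: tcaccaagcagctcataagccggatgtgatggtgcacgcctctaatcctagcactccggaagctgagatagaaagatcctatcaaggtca
Tile 117, chr17:29073793-29073882: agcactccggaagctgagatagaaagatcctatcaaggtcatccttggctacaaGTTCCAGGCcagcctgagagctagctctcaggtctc

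Tiles 135 and 136 were the next highest and held neither word on the printed strand. Capitals here mark the 41 bases that they share, which include a run of G and C letters.
Tile 135, chr17:29072911-29073000: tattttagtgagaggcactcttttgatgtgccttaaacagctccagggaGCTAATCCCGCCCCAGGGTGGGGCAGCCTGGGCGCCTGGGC
Tile 136, chr17:29072862-29072951: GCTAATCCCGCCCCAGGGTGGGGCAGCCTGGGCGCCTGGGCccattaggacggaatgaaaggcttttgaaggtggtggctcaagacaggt

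From the low end, tiles 50 and 104 are shown with the box words searched as before and not found. Tile 50 does share the runs taagagcactg and tcccagca with tile 54, in the same direction and order. The missing words therefore do not mean that tile 50 is unlike tile 54.
Tile 50, chr17:29077136-29077225: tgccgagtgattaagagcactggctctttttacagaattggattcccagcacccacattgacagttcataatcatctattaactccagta
Tile 104, chr17:29074430-29074519: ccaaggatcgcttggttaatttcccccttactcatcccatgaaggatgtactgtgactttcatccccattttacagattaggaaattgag

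Of the 123 members, 119 were above 0 in all 3 vector libraries and were tested. Tiles 41, 52, 60 and 61 were listed at 0 in all 6 libraries. They lay at 29077577-29077666, 29077038-29077127, 29076646-29076735 and 29076597-29076686, and held long simple repeats of CTC, CA and GAAA units, the last in both tile 60 and tile 61. The members' tags took 8.01%, 8.13% and 7.58% of all tag reads in the RNA libraries and 4.41%, 4.40% and 4.39% in the vector libraries. The tags of all 445 tiles took 20.3%, 20.6% and 20.1% in RNA and 17.8% in each vector library. Shares are thus relative to a total made up mostly of tag reads that are not listed. Tile 54 alone held 47.8% of the members' RNA share and 2.42% of their vector share. Over the 119 members the shares of 2 vector libraries correlated on the log2 scale at r = 0.998 to 0.999 and those of 2 RNA libraries at r = 0.968 to 0.975, a description over tiles that share pool and overlap. The median SD between libraries was 0.18 in RNA and 0.037 in vector on the log2 scale.

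Most members were somewhat lower in RNA than in vector, and a few were much higher. By limma over all 431 tested tiles of the library, with an adjusted p under 0.05, 13 of the 119 members were higher in RNA and 73 were lower, while 33 passed in neither direction. Over all 431 tested tiles 9.74% were higher and 59.9% lower, so the members' counts lay near those of all tiles. The median log2 difference was -0.36 over the members and -0.33 over all tiles. RNA shares at the median tile of the library were lower than vector shares by 0.26 on the log2 scale. With each library centred on its median tile, 18 members were higher and 15 lower, against 13.7% and 14.2% of all tiles. The share of calls that were higher moved from 15.1% to 54.5% with the centring. The 13 higher members were all among the 18, and the 15 were all among the 73, so the other lower calls rest on the share of total tag reads and were not made against the median tile. The count of 73 was 48 without the second vector library.

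By size, 6 members rose at least 2-fold and only tile 78 fell that far, compared with 14 and 4 over all tiles. In 16 members all 3 RNA values lay above all 3 vector values, and in 76 all lay below, against 47 and 285 of the 431 tiles.

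Tile 54 carried 38673, 40449 and 34308 ppm of the RNA libraries, and 1080, 1063 and 1058 ppm of the vector libraries. The mean was 37810 ± 3160 ppm in RNA and 1067 ± 11.1 ppm in vector (SD, n = 3), a 35.4-fold ratio. Every RNA library stood far above every vector library. The log2 difference was 5.13 (SE 0.063, limma adjusted p = 1.7e-10). Of its 5 tags, CTAAATCGAC was listed at 0 in all 6 libraries and the other 4 were raised between 29.7-fold and 38.7-fold. Tag GCTGACGTTC averaged 18518 ppm in RNA against 478 ppm in vector, and tag TACGTATTCC, the lowest of the 4, averaged 4263 ppm against 135 ppm. Each of the 4 tags differed from its nearest companion by 1 letter, and from the nearest tag of any other tile by 2 or 3 letters. The 4 thus form 2 pairs, GCTGACGTTC with GCTGACGTTG and TACGTATTCC with TACGTATTCG. Whether reads of 1 tag were listed under its companion was not tested, so the tags of a pair may not be independent. The high RNA share of tile 54 was seen with every tag that was detected in the vector.

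The neighbours of tile 54 had nothing of this size. Tile 53 carried 290, 296 and 234 ppm in RNA and 218, 221 and 208 ppm in vector, with every RNA value above every vector value by a small margin (log2 0.32, SE 0.10, limma adjusted p = 0.020). That call was lost when any 1 vector library or the first RNA library was left out, with adjusted p then above 0.05. Tile 55 carried 507, 534 and 536 ppm in RNA and 524, 523 and 512 ppm in vector, and the groups overlapped (log2 0.02, SE 0.05, adjusted p = 0.77). With libraries centred, tile 55 was higher by 0.28. Tile 56 was lower at -0.29 (SE 0.10, limma adjusted p = 0.032), a call lost without any 1 of the vector libraries, and tile 52 was not tested. From tile 53 to tile 54 the step was a rise of 4.81 (SE 0.08) and the step from tile 54 to tile 55 a fall of 5.11 (SE 0.10) on the log2 scale, in limma's fit over consecutive tiles.

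Tiles 76 and 77 formed the second peak. Tile 76 carried 4222, 4311 and 3522 ppm in RNA against 548, 540 and 534 ppm in vector, a 7.43-fold ratio of means (log2 2.87, SE 0.07, limma adjusted p = 2.4e-08). All 3 of its detected tags were raised, at 4.64-fold, 8.01-fold and 8.50-fold. Tile 77 carried 1478, 1495 and 1315 ppm in RNA against 652, 639 and 673 ppm in vector (log2 1.11, SE 0.06, limma adjusted p = 2.0e-06). Both tiles were above the vector in all libraries. In tile 77, though, tag TGGTAGCCAT supplied 82.0% of the RNA. It was also the commonest in vector, at 490 of 655 ppm, and was raised 2.39-fold. Tags GTGATGGCTT and TATATCGGGT were raised 2.32-fold and 2.03-fold. Tag AATAAACGCG averaged 14.2 ppm in RNA against 1.86 ppm in vector, where 2 libraries listed it at 0. Only tag CGGCCCGCAT was below the vector, at 0.72-fold. The readout turned to -0.47 when 5 times the median tag replaced the sum. That median tag was CGGCCCGCAT in every library, so the -0.47 is the value of this tag alone. On the exon 1 side, tile 75 was not called at 0.09 (SE 0.04) and the step up to tile 76 was 2.78 (SE 0.12). On the exon 2 side, tile 78 carried 66.4, 52.1 and 86.9 ppm in RNA against 146, 160 and 149 ppm in vector, the lowest readout of the members (log2 -1.07, SE 0.17, limma adjusted p = 0.00095). Tile 78 rested on 2 tags detected in vector, and its readout turned to 0.98 with 5 times the median tag and was -0.27, with no call, with the mean of log2 tag shares. Its median tag was 0 in all vector libraries and above 0 in 1 RNA library. The 0.98 was therefore measured against the added 10 ppm alone. The step from tile 77 to tile 78 was 2.18 (SE 0.21), although the tiles share 41 bases.

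Tile 93 carried 1064, 1279 and 978 ppm in RNA against 389, 372 and 367 ppm in vector (log2 1.52, SE 0.09, limma adjusted p = 4.7e-06), and its 4 tags found in all libraries lay close together, with an SD between tags of 0.11 on the log2 scale. Its neighbours were close to their vector share, with tile 92 at 0.16 (SE 0.04, called) and tile 94 at 0.16 (SE 0.07, not called). Tile 116 carried 1167, 1109 and 988 ppm in RNA against 509, 528 and 551 ppm in vector, and tile 117 carried 1473, 1501 and 1336 ppm against 1068, 1060 and 1075 ppm. Their log2 differences were 1.02 (SE 0.07) and 0.42 (SE 0.05), and all 5 tags of both tiles were above the vector. Tile 115, next to tile 116, was lower at -0.59, a step of 1.61.

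Tile 20 was a rare oligo, at 96.7, 93.3 and 89.7 ppm in vector, and its RNA values of 266, 154 and 208 ppm were the most scattered among the higher tiles (log2 1.05, SE 0.18, limma adjusted p = 0.0013). Of its 3 detected tags, 1 was at 0 in an RNA library, and tag CATGCACGTT supplied 76.1% of its RNA and 56.1 of its 93.2 ppm in vector. Without that tag the readout was 0.15 and not called, and with 5 times the median tag it turned to -0.47. The median tag was at 31.8 and 24.7 ppm in RNA libraries 1 and 3, against 13.7, 14.8 and 16.2 ppm in vector. In RNA library 2 it was 0, so the turn to -0.47 rests on that library and the added 10 ppm. Tile 19, its neighbour, was higher by 0.26 (SE 0.09). Tiles 135 and 136 were higher by 0.87 (SE 0.06) and 0.47 (SE 0.08). Tile 135 carried 694, 617 and 693 ppm in RNA against 367, 346 and 369 ppm in vector, with all 5 tags raised. Tile 136 carried 317, 282 and 296 ppm against 212, 203 and 222 ppm. The remaining higher member, tile 129, was only 0.13 above the vector (SE 0.04).

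The higher tiles thus came in neighbouring pairs. Of the 13, 12 overlapped another higher member and made up 6 pairs: tiles 19 and 20, 53 and 54, 76 and 77, 92 and 93, 116 and 117, and 135 and 136. Outside the segment, 8 of the 29 higher tiles overlapped another, a difference that was not tested. Overlapping tiles share 41 bases and are not independent, and the call of tile 53, in 1 of the pairs, was not stable. In each pair, 1 tile was well above the other, with the larger value in the tile nearer exon 1 for 3 pairs and in the tile nearer exon 2 for the other 3. No run of 3 or more higher members was found until libraries were centred, when tiles 55, 75 and 94 extended 3 of the pairs. Over the members with both tiles tested, the readout of a tile and of the next overlapping tile correlated at r = 0.23 (n = 114 pairs), and that of a tile and the second next, which share no base, at r = -0.12 (n = 111 pairs), as a description.

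Lower members ran in longer stretches, but 61.3% of tested members were lower and 10.9% higher, against 59.9% and 9.74% of all tiles. Lengths of runs elsewhere in the library were not compared. The longest was the 14 tiles from 78 to 91, which started at -1.07 and ended at -0.40. That run crosses the wider spacing between tiles 83 and 84, which do not overlap. Next came 7 tiles from 68 (-0.24) to 74 (-0.54) and 6 tiles from 42 (-0.61) to 47 (-0.38). Runs of 5 reached from tile 28 (-0.22) to 32 (-0.47) and from tile 35 (-0.46) to 39 (-0.37), and runs of 4 from tile 102 (-0.26) to 105 (-0.49) and from tile 112 (-0.43) to 115 (-0.59). Runs of 3 began at tiles 56 (-0.29), 98 (-0.73), 118 (-0.25), 122 (-0.40) and 132 (-0.41), and ended at tiles 58 (-0.69), 100 (-0.74), 120 (-0.38), 124 (-0.50) and 134 (-0.49). With libraries centred, the longest lower runs were 2 tiles, 82 with 83 and 112 with 113. Tile 113 carried 391, 390 and 394 ppm in RNA against 562, 574 and 557 ppm in vector, and is an example of a member that was lower in both fits with little spread (log2 -0.52, SE 0.05, limma adjusted p = 6.0e-05).

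Among the lowest 10, tile 104 had the firmest value, with 454, 352 and 404 ppm in RNA against 672, 672 and 701 ppm in vector (log2 -0.75, SE 0.09, limma adjusted p = 0.00020). Tile 100 carried 144, 125 and 158 ppm in RNA against 248, 249 and 234 ppm in vector (log2 -0.74, SE 0.10). Tile 50 carried 104, 92.6 and 176 ppm against 238, 241 and 236 ppm (log2 -0.94, SE 0.20), and tile 88 406, 277 and 378 ppm against 566, 549 and 552 ppm (log2 -0.66, SE 0.13). In all 10 of the lowest tiles the RNA libraries lay wholly below the vector libraries, as in 72 of the 73 lower members. For tiles 104, 100, 50, 88 and 78 the calls held when libraries were centred. Tiles 37 (-0.88), 44 (-0.74), 98 (-0.73), 58 (-0.69) and 99 (-0.63) lost their call on centring. Tile 98 rested on 1 tag, and tiles 37, 44 and 99 on 1 tag detected in every library. The calls of tiles 37 and 99 were also lost without any 1 vector library. Each of the 10 lowest tiles lost its call or turned under at least 1 other summary of its tags. For tiles 58, 98 and 99 the loss with the median tag was fixed in advance. Most of their tags were listed at 0, and so was the median tag. Those losses do not measure the spread between tags.

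Low values were bounded by how the file lists them. The lowest share listed above 0 was 5.59 to 7.81 ppm in vector and 8.54 to 9.69 ppm in RNA, so a tag near that level can appear in vector and be listed at 0 in RNA. Such a loss of at least 1 tag occurred in 38 of the 73 lower members, 17 of the 33 that passed in neither direction and 2 of the 13 higher ones. With tiles summed over tags above 0 in all 6 libraries, an alternative chosen after seeing the data, 14 members were higher and 68 lower of 117 tested.

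The steps between consecutive tiles do not depend on a shift common to a library. Of 115 member pairs, 25 steps passed limma's test at an adjusted p under 0.05, against 21.5% of all 419 pairs in the library. The tile nearer exon 1 was higher in 13 and lower in 12. Of these, 13 was 8, 7 or 8 without vector library 1, 2 or 3. The 10 largest steps all had tile 54, 76, 77, 93, 20, 116 or 135 on 1 side. Away from these tiles, the largest were from tile 136 to 137, a fall of 0.95 (SE 0.11), from tile 34 to 35, a fall of 0.81 (SE 0.17), and from tile 39 to 40, a step of -0.75 (SE 0.10) taken as tile 39 minus tile 40.

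The 5 tags of a tile carry the same insert. Their spread, taken over tags above 0 in every library, can hold the noise of rare tags as well as what a tag adds to the readout. These were not told apart. Over members, the median SD between the tags of a tile was 0.24 on the log2 scale, the same as over all tiles. In tiles with at least 3 detected tags, 8 of 293 member tags differed from their companions by limma with an adjusted p under 0.05, against 4.32% of all 1180 tags. The largest was tag CGGCCCGCAT of tile 77, which was at -1.59 against its companions, with 40.8, 58.4 and 51.8 ppm in RNA and 66.0, 67.4 and 75.8 ppm in vector. The others were tag ATGAAACAAT of tile 111 at 1.04, tag TGAGTCGTAC of tile 18 at 1.04, tag TACTCAGCGG of tile 101 at -0.92, tag CGTGTAGAGG of tile 76 at -0.82, tag CTGCGGATTG of tile 120 at -0.72, tag CAGGGCGTCG of tile 116 at 0.71 and tag AAAGCCTACG of tile 50 at 0.66. The count was not stable: without RNA library 1, 2 or 3 it was 24, 15 or 33, and without any 1 vector library it was 1.

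The median level of the segment was set against the rest of the intron, with libraries as replicates. Within each library, the median tested member minus the median tested tile elsewhere in the intron was -0.25 ± 0.06 on the log2 scale in RNA and -0.26 ± 0.03 in vector (SD, n = 3 libraries each). The difference of 0.02 had an exact two-sided permutation p of 0.7, where 0.1 is the smallest that 3 against 3 libraries allow, and it was -0.01 without the first RNA library. Along the segment, successive stretches of 1000 bases from exon 1 held 2, 2, 2, 2, 1 and 4 higher members. They held 11, 11, 10, 15, 13 and 12 lower ones. The 4 lay in the stretch farthest from exon 1, a difference that was not tested. Tiles 138 and 139 lay beyond the last stretch.

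Among the 119 tested members, readout went with base composition. GC content had a rank correlation of 0.46 with the log2 difference (r = 0.31), the number of CpG pairs 0.34 (r = 0.24) and the share of T -0.40 (r = -0.24). These are correlations over tiles that overlap and share a pool, given as a description. Median GC was 53.3% in the 13 higher members, 46.7% in the 73 lower, 50% in the 33 that passed in neither direction and 37.2% in the 4 not tested. The 6 members at least 2-fold higher had between 50% and 62.2% GC. Log2 vector abundance had a rank correlation of 0.029 with the readout (r = 0.12).

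The B box word was present on the printed strand of 10 members, 8.13% of the 123, against 4.27% of all 445 tiles. Of these 10, tiles 54, 76, 77, 93 and 117 were higher, tiles 21, 118 and 137 lower, and tiles 94 and 138 passed in neither direction. Tiles 76 and 77, 93 and 94, 117 and 118, and 137 and 138 hold the same letters in bases they share. The 10 are therefore not separate occurrences. The median readout was 0.29 with the word and -0.37 without it. In the whole library, these 10 included, 11 of 19 tiles with the word on the printed strand were higher, with a median of 0.42. The word on the other strand occurred in 12 tiles, of which 2 were higher, with a median of -0.24, and tile 106 was the only member among them (-0.31). Both words together on the printed strand were found in 2 tiles of the library. These were tile 54 (5.13), the only member, and 1 tile outside the segment that was also higher, at 2.94. Both together on the other strand were in 2 tiles, at 0.27 and 0.94, which were the 2 higher tiles with the B box word on that strand. With a looser spelling of the A box, GCNNANNNG, tile 21 (-0.29) also held both, as did 5 tiles of the library. The A box word was on the printed strand of 16 members, tile 54 among them, of which 3 were higher and 10 lower, against 10.9% and 61.3% of the tested members. The median readout was -0.28 with it and -0.37 without. A match is a run of letters and not a measured binding site, and what the words add to the readout was not tested.

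Related copies elsewhere in the library gave a second view of the 2 repeats, also chosen after the values were seen. Tile 54 had 5 similar tiles by local alignment over at least 40 bases, none of them a member. Tile 165 matched it at 58 of 60 aligned bases on the opposite strand and was not called, at 171 ± 18.9 ppm in RNA and 163 ± 6.90 ppm in vector (log2 0.06, SE 0.11). Tile 166 matched at 56 of 63 bases, also reversed, and was at 0.94 (SE 0.05), and tile 262 at 69 of 79 bases reversed was at 0.27 (SE 0.06). Tile 444 in exon 2, the only 1 of the 5 in the same direction, matched at 56 of 69 bases and was at 0.73 (SE 0.07). Tile 50 fell short of the alignment score or length kept. Tile 261, reversed at 36 of 40 bases, was not called at -0.14. None approached the 5.13 of tile 54. Of the 9 tiles similar to tile 76, 1 was higher and 4 lower, with readouts from -0.89 to 0.39. Of the 12 similar to tile 77, 1 was higher and 5 lower, from -0.59 to 0.39. Over all tested tiles, 9.74% were higher and 59.9% lower. Tiles 246, 265, 295 and 383 were in both lists, and the higher tile was tile 295 in each. Some of the listed tiles also overlap each other, so they are not separate copies. Tile 77 matched tile 303 at 72 of 77 bases in the same direction, and tile 303 was not called at -0.14. It also matched tile 383 at 81 of 86 bases reversed, and tile 383 was not called at -0.25. Tile 384, which matched tile 76 at 76 of 85 bases reversed, was lower at -0.41. Tile 295, which matched tile 76 at 49 of 56 bases in the same direction, was higher at 0.39, and tile 310, at 44 of 55 bases in the same direction, was not called at -0.41. Tile 116 had 1 similar tile, tile 266, reversed at 40 of 51 bases and not called at -0.22. Tile 266 also matched tile 76, at 59 of 70 bases reversed. Tiles 20, 93 and 135 had no similar tile. The copies differ from the members in sequence, extent and neighbours as well as direction, and these were not tested apart.

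Short words for transcription factors were mostly in few members, so their counts are read against the 10.9% of tested members that were higher. The E-box CANNTG, the family of sites bound by myogenic factors in muscle cells, was in 36 of 123 members (29.3%) and 162 of 445 tiles (36.4%), on either strand, and the median readout was -0.41 with it and -0.33 without. Its myogenic form CAGCTG, itself a case of CANNTG, was in 3 members, and none of them was higher. The GC box GGGCGG was in 6 members (4.88%, against 3.15% of all tiles), of which 2 were higher, with a median of -0.10. The 2 were tiles 135 and 136, which held it in the bases they share. The GATA word AGATAA was in 4 members, of which tiles 53 and 54 were higher and held it in the bases they share, and the median was 0.04 with it and -0.37 without. The Runx word TGTGGT was in 4 members, 1 of them higher, with a median of 0.09. The ETS word CCGGAA was in 5, of which tiles 116 and 117 were higher and held it in the bases they share, with a median of -0.01. The homeobox word GATTA was in 16 members, of which 4 were higher, with a median of -0.40. Among the 4 were tiles 135 and 136, again with the word in shared bases. None of the tested members with the AP-1 word TGANTCA (2), the NF-Y word CCAAT (9), the TATA word TATAAA (2) or the forkhead word TTGTTT (14) was higher, and counts this small cannot be told from the overall share. Letters that resemble a p53 site, searched because linc-p21 is a p53 target, were in 4 members, of which 1 was higher, with a median of -0.06, and in 9 tiles in all. Each word was searched on both strands of the tile, and absence of the letters says nothing about a factor.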

How the data were processed

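Tag RNA from C2C12 cells (3 libraries) and vector DNA (3 libraries) were analysed; the organ libraries were not, and an organ table served only for the exon coordinates of Trp53cor1. Values were deposited by the authors as a fraction of tag reads per tag and library, per the file headers. The submitters' processing notes name CASAVA 1.8.2, and no source used here says how reads were assigned to tags. Depth is not stated, so no counting intervals are given. All shares above 0 were at least 40 times the smallest step between shares of that library, and lower tags are listed at 0. Fractions were multiplied to ppm, and the 5 tags of a tile were summed.

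Tiles above 0 in all 3 vector libraries (431 of 445) were tested on log2(share + 1e-05) by limma 3.58.1 under R 4.3.3, allowing a mean-variance trend, two-sided, with Benjamini-Hochberg adjustment over all tiles at 0.05. Steps between consecutive tiles (419), and tags against the mean of the other tags of their tile (1180, pseudocount 1e-06), were fitted likewise without a trend. The scripts were tested on simulated data. The sequences of some members are not reported here. The positional rule for the members, the tests and the word lists were set with earlier results of these data known. Full values are given for the 10 highest and 10 lowest called members, the 2 tiles on each side of the highest, tiles not tested, ends of runs of at least 3 called tiles, and tags called apart. Similar tiles came from local alignment with Biopython 1.88 (match 2, mismatch -3, gap opening -6, gap extension -2, score at least 44). Alternatives covered pseudocounts, tag summaries, filters, scaling, the trend, a replicate block and leaving out each library.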

Additional observations from a re-analysis of the deposited data

How the results depend on the processing

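The counts of members higher (13) and lower (73) moved with the scaling, the summary of the tags and the filter. With 5 times the median tag they were 7 and 22, with the mean of log2 tag shares 35 were lower, and without the tag highest in RNA 45 were lower. Where most tags of a tile were listed at 0 in a library, its median tag there was 0. With all 5 tags required in vector, 33 members were tested, 4 higher and 26 lower. Centred libraries left 15 lower. Leaving out 1 library gave 9 to 17 higher and 48 to 77 lower, the lowest without the second vector library. Steps with the tile nearer exon 1 higher (13) were 5 with the mean of log2 tag shares and 1 with all 5 tags in vector, where steps the other way (12) were 3, and leaving out 1 library gave 7 to 19 and 8 to 17. Tags apart (8) ranged from 1 to 33 when 1 library was left out. The difference from the rest of the intron ranged from -0.013 to 0.042, negative without the first RNA library. With 5 times the median tag, tiles 20 and 77 turned to -0.47 and tile 78 to 0.98. For tile 77 this was the value of 1 tag alone, and for tiles 20 and 78 it rested on median tags listed at 0. Tile 55 turned to -0.024 with the mean of log2 tag shares and -0.17 with shares of listed tags. Of the other values of the named tiles, 323 kept direction and side, 50 lost the call and 1 gained it. Tiles 54, 76, 93, 116, 117 and 135 kept their call under every alternative run. Except where fewer tiles or libraries entered, the cause of these changes was not tested.

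RNA and vector libraries of the same number did not deviate together (correlations -0.0095, -0.059 and 0.028), so the numbers were not taken as pairs. A replicate block gave 12 members higher and 69 lower, steps of 10 and 11, 1 tag apart, and the same 0.017 against the rest of the intron (exact permutation p of 1).

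Depth is unknown, and tags listed at 0 limit what can be said of rare oligos.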
